A study of Homo sapiens with 16 samples.

Results

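The comparison described here sets cells carrying a guide against STING beside cells carrying a control guide, both sampled after a pulse of an MPS1 inhibitor. Its members are the 4 libraries whose raw count columns are labelled for these conditions, 2 a side, out of 16 libraries in the whole series. All 16 are RNA sequencing libraries of NCI-H1944, an established human lung adenocarcinoma cell line. The control cells (SCR, labelled wild type) and the STING-guide cells (labelled STING knockout) were each treated with the MPS1 inhibitor (MPS1i) BAY-1217389 at 100 nM for 48 h, and were then grown for 24 h after the drug was washed out. The same lines given DMSO on the same schedule supply the untreated background, and cells with a guide against MAVS given MPS1i supply the nearest other comparison. The labels do not say whether the STING-guide line is 1 clone or a pool, nor whether the 2 replicates of a group are separate cultures. Every p-value below therefore measures only the spread between these libraries.

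STING is an adaptor on the endoplasmic reticulum. It is switched on by the cyclic dinucleotide that the enzyme cGAS makes when it meets DNA in the cytosol, and it recruits the kinase TBK1, which phosphorylates IRF3 and also leads to NF-kB activity. IRF3 and NF-kB together induce type I and type III interferons, which act on the cells that made them and on their neighbours through JAK-STAT signalling to raise interferon-stimulated genes. MPS1 is a mitotic kinase that guards chromosome segregation, and its loss yields missegregated chromosomes and micronuclei, a known source of DNA that cGAS can meet. MAVS is the matching adaptor for RNA sensed in the cytosol by RIG-I and MDA5.

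Genes named beyond the rule given with the processing were chosen after their values were seen. Promoters of 4 genes from the lists described below are shown because their genes stand for the kinds of response that differed: CXCL10 for T cell chemokines, B2M for antigen presentation, IFIT1 for interferon-stimulated genes and IL6 for NF-kB. Each is the stretch of 250 bases before the RefSeq start site (GRCh38.p14), written 5′ to 3′ on the strand of the gene. Capitals mark matches, on either strand, to a core of the element bound by interferon regulatory factors (GAAA, any 2 bases, GAAA) and to the NF-kB site (GGGA, any 2 bases, TTCC, or GGGG joined to ATTCCC). The positions are chr4:76023498-76023747 on the minus strand for CXCL10, chr15:44711267-44711516 on the plus strand for B2M, chr10:89392373-89392622 on the plus strand for IFIT1 and chr7:22726950-22727199 on the plus strand for IL6.
CXCL10: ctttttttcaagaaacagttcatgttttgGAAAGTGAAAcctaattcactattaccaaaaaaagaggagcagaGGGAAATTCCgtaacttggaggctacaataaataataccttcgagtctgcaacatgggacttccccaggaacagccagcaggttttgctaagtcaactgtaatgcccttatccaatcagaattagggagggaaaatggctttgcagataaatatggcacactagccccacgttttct
B2M: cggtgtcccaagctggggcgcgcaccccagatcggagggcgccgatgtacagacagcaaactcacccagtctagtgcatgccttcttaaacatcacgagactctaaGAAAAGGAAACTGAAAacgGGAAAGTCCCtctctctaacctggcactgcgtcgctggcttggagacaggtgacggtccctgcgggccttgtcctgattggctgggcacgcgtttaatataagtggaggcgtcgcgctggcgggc
IFIT1: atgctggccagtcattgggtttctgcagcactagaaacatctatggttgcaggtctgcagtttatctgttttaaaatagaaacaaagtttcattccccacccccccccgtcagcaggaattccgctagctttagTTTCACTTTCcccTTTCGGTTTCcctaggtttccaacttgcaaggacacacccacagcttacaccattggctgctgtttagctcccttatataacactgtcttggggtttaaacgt
IL6: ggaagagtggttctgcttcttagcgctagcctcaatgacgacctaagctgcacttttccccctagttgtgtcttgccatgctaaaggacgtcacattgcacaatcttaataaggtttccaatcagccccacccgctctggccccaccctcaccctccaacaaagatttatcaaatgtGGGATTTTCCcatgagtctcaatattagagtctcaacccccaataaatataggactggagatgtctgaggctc
The CXCL10 window held 1 match to each motif, at 221 and 177 bases before the start. In the B2M window a pair of overlapping matches to the interferon regulatory factor motif began at 144 and 138 bases before the start, and an NF-kB match began at 125. The IFIT1 window held 2 matches to the first motif on the opposite strand, at 116 and 103 bases before the start, and the IL6 window held 1 NF-kB match at 73 bases. Of 35116 windows of this length in the RefSeq table, 3.02% held the interferon regulatory factor motif, 1.47% held an NF-kB motif and 0.0598% held both. A match is a run of letters and does not show that a factor was bound.

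Total counts ran from 26290514 to 45854868 in the 4 libraries and from 19893784 to 49769938 over all 16. Levels are given as CPM, the count of a gene relative to the TMM-scaled total of its library, which are not scaled for gene length. Levels are compared within a gene, and where genes are named by the size of a CPM difference, that choice favours long and abundant transcripts. Of 60612 genes in the table, 17950 had enough counts to be tested. Replicates lay close together: log2 CPM of the 17950 genes correlated across genes at 0.997 between the SCR libraries and at 0.9957 between the STING-guide libraries. On the first principal component, which held 51.8% of the variance, the SCR libraries after MPS1i stood at 57.3 and 56.6, the STING-guide libraries after MPS1i at 16.99 and 17.8, and the 4 DMSO libraries of these lines between -26.95 and -17.91. After the pulse, the STING-guide libraries thus lay between the untreated libraries and the SCR libraries on this axis.

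After the pulse, 5949 genes differed between STING-guide and SCR cells (33.1% of the genes tested), with 2843 higher (15.8%) and 3106 lower (17.3%) in STING-guide cells. A gene is called where its p from the quasi-likelihood test of edgeR, adjusted over all genes tested by the Benjamini-Hochberg method, is under 0.05. Most differences were small, with 4197 of the called genes (70.5%) under 1.5-fold. Large differences were mostly losses. At least 2-fold differences were called for 723 genes (4.03%), 584 of them lower (3.25%) and 139 higher (0.774%). At least 4-fold differences were called for 180 lower and 15 higher genes, and at least 8-fold for 68 lower and 4 higher genes. The 1st percentile of log2 fold changes over all genes was -2.195 and the 99th was 1.288, around a median of -0.002. The near balance of all calls depends on the scaling: 52.2% of called genes were lower with TMM, and 40% were lower when counts were scaled by library totals only.

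**Figure D1:**
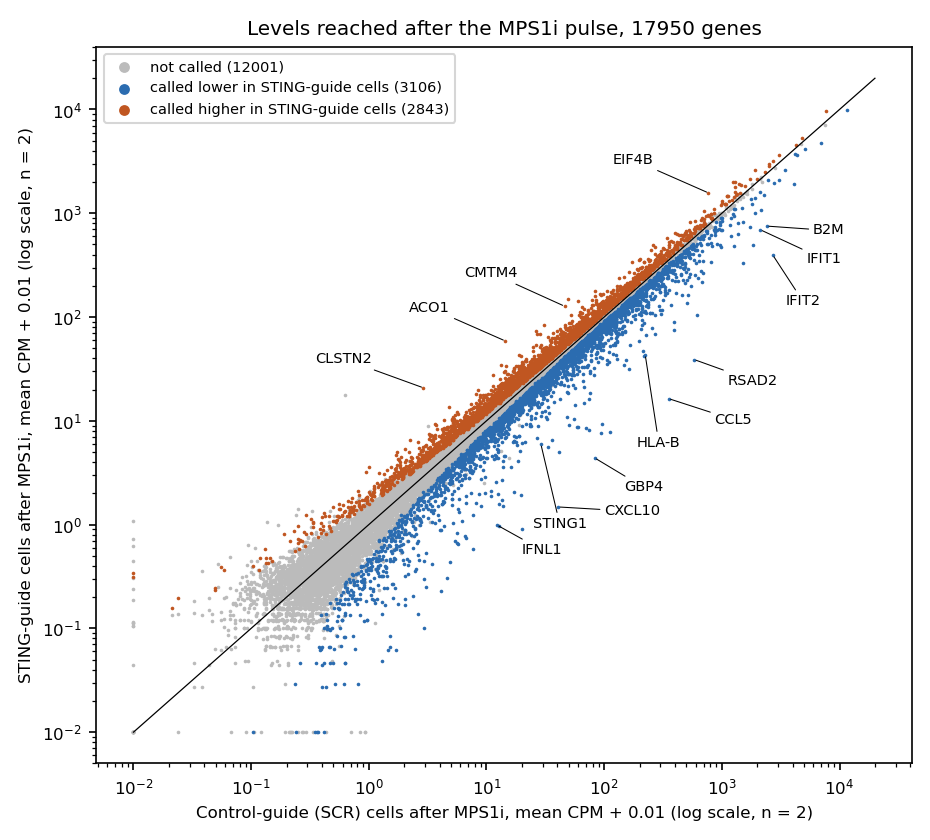
Mean CPM (n = 2, plus 0.01, both axes logarithmic) of 17950 genes after MPS1i in SCR cells (horizontal) and STING-guide cells (vertical), with called genes in colour and the line of equal level in black. Points far from the line lie mostly below it: interferon and chemokine genes such as CXCL10 and CCL5 lie far below it, while ACO1 and CLSTN2 are among the few far above.

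The STING transcript itself was lower in the STING-guide libraries. STING1 (ENSG00000184584, chromosome 5, 139475533 to 139482935, GRCh38) stood after MPS1i at 29.1 and 28.9 CPM in the SCR libraries and at 5.99 and 5.89 CPM in the STING-guide libraries, and the groups did not overlap (log2 fold change -2.29 ± 0.10, adjusted p = 1.3e-15). Pairs of levels give replicate 1 before replicate 2, and values with ± are log2 fold changes of STING-guide against SCR cells, unless another contrast is named, with their standard errors. Under DMSO it stood at 8.25 and 8.30 CPM in SCR and 3.78 and 3.70 CPM in STING-guide cells (-1.14 ± 0.12, adjusted p = 2.1e-07). STING1 is also a gene that was higher after the pulse in SCR cells, and the difference between the guides was larger after the pulse than before it (-1.14 ± 0.16, adjusted p = 8.8e-06). A transcript level does not measure the protein, so the lower level agrees in direction with the label without checking the edit. TTK, the gene of MPS1, stood at 31.4 and 36 CPM in SCR and 32.1 and 28.7 CPM in STING-guide libraries after the pulse, and did not pass the test (-0.15 ± 0.08, adjusted p = 0.13). Without SCR replicate 1 it did, at -0.23 and an adjusted p of 0.0448. MAVS was higher in STING-guide cells, at 182 and 186 CPM against 121 and 119 CPM (0.62 ± 0.05, adjusted p = 4.6e-11).

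Of 25 genes of the cGAS-STING pathway, 10 were lower, 7 were higher and 8 did not pass the test after MPS1i, with a median log2 fold change of 0.03. Here and in the lists below, counts after MPS1i stand beside 15.8% higher and 17.3% lower over all genes tested. These shares grew with level, to 22.3% and 22.8% at 10 to 100 CPM and 26.6% and 30.5% above 100 CPM. Counts under DMSO stand beside 4.70% higher and 5.47% lower. The sensor CGAS stood at 60.6 and 69.3 CPM in SCR and 41.3 and 41.3 CPM in STING-guide libraries, with no overlap (-0.66 ± 0.08, adjusted p = 3.9e-07). Under DMSO the CGAS levels of the guides overlapped, at 29.8 and 35 CPM in SCR and 30.4 and 34.5 CPM in STING-guide libraries. TBK1, the kinase that STING recruits, was lower by a smaller margin, at 89.2 and 87.7 against 114 and 122 CPM (-0.41 ± 0.06, adjusted p = 5.2e-06). IRF3, its substrate, stood at 20.3 and 20.04 CPM in SCR and 17.1 and 21.2 CPM in STING-guide libraries, with overlap, and did not pass (-0.07 ± 0.10, adjusted p = 0.61). ENPP1, which degrades the cyclic dinucleotide made by cGAS, was lower (-0.998 ± 0.20, adjusted p = 0.00032). Also lower were IRF7, another interferon regulatory factor, at -0.89 ± 0.08, the DNA-binding protein IFI16 at -0.85 ± 0.04 and the dNTP hydrolase SAMHD1 at -0.96 ± 0.06. The 7 higher genes included PRKDC, the catalytic subunit of the DNA-dependent protein kinase (0.42 ± 0.04), and SURF4, a receptor of endoplasmic reticulum export (0.23 ± 0.05). Without STING-guide replicate 2, 4 rather than 7 genes of the list were higher.

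Of the interferon and T cell chemokine genes, 9 of 12 had enough counts to be tested, and 7 of the 9 were lower in STING-guide cells, with a median log2 fold change of -3.48. Some genes, such as IFNB1, had enough counts in both SCR libraries after the pulse but not in both STING-guide libraries. Such a gene could hardly be called higher in STING-guide cells, so this count and median are partly set by which genes could be tested. CXCL10, which draws CXCR3-bearing T cells, stood at 38.9 and 42.5 CPM in the SCR libraries and 1.45 and 1.49 CPM in the STING-guide libraries after the pulse. The STING-guide libraries were both far below the SCR libraries, and the groups did not overlap (27.6-fold lower, log2 -4.79 ± 0.18, adjusted p = 8.9e-16). CXCL11, a ligand of the same receptor, stood at 19 and 20.7 against 0.839 and 0.935 CPM (-4.48 ± 0.20, adjusted p = 2.6e-15). CCL5, which attracts T cells, stood at 347 and 359 against 16.3 and 16.4 CPM (-4.43 ± 0.07, adjusted p = 5.8e-25). CCL5 also differed under DMSO, at 28.8 and 29.9 CPM in SCR and 1.89 and 2.63 CPM in STING-guide cells (-3.71 ± 0.10, adjusted p = 1.5e-18).

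The interferon genes stood at low levels. IFNB1, the type I interferon made by most cell types, stood at 4.64 and 5.06 CPM in SCR and 0.191 and 0.658 CPM in STING-guide libraries (-3.48 ± 0.41, adjusted p = 3.5e-07). The STING-guide values rest on 5 and 19 counts, and the log2 fold change was -2.87 without STING-guide replicate 1 and -4.64 without replicate 2. IFNL1, a type III interferon, stood at 13 and 11.6 against 0.953 and 1 CPM (-3.64 ± 0.22, adjusted p = 1.2e-11). IFNL2 and IFNL3, near-identical genes that may share reads, were at -3.06 ± 0.20 and -3.36 ± 0.26. In the DMSO libraries of both lines these 4 genes had between 0 and 5 counts each, so the STING-guide libraries after the pulse stood far below the SCR libraries and yet above every untreated library in CPM. IL15 stood at 9.17 and 8.13 against 7.21 and 7.65 CPM and did not pass (-0.22 ± 0.12, adjusted p = 0.2), nor did IFNE. Summed over the list, the libraries held 470.1 and 483.5 CPM in SCR and 31.5 and 32.76 CPM in STING-guide cells after the pulse. That is 6.738% of the SCR level, and CCL5 made up most of the SCR sum. Under DMSO the list summed to 36.8 and 36.16 CPM in SCR and 9.159 and 9.779 CPM in STING-guide cells, or 25.96% of the SCR level. There CCL5 made up most of the SCR sum but only the smaller part of the STING-guide sum. The percentages after the pulse and under DMSO thus rest on different mixes of genes. In these bulk libraries, fewer cells making a transcript and less of it per cell cannot be told apart.

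All 65 tested members of the interferon response list were lower in STING-guide cells after the pulse, with a median log2 fold change of -1.20. This list, like the others, was chosen with earlier results of these data known, so the count describes its members and is not independent evidence. The range ran from -4.25 ± 0.12 for GBP4, a guanylate-binding protein, to -0.26 ± 0.05 for TRIM14. GBP4 stood at 82 and 84.6 CPM in SCR and 4.31 and 4.43 CPM in STING-guide libraries (19-fold lower, adjusted p = 2.6e-19). RSAD2, the antiviral enzyme viperin, stood at 572 and 592 against 38.4 and 39.4 CPM (-3.90 ± 0.20, adjusted p = 8e-07), and LAMP3 at 109.9 and 114 against 8.24 and 7.48 CPM (-3.83 ± 0.10, adjusted p = 1.9e-19). In each of these the SCR libraries were high, the STING-guide libraries low, and the groups far apart. TNFSF13B, the B cell survival factor BAFF, was at -3.37 ± 0.10, and the exonuclease gene ISG20 at -3.04 ± 0.10.

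More abundant members differed by varied amounts. IFIT1, which binds foreign RNA caps, stood at 2088 and 2169 CPM in SCR and 707 and 678 CPM in STING-guide libraries (-1.62 ± 0.08, adjusted p = 5.5e-09). Its neighbour IFIT2 stood at 2714 and 2708 against 397 and 394 CPM (-2.78 ± 0.10, adjusted p = 1e-09). MX1, a dynamin-like antiviral GTPase, stood at 2188 and 2154 against 1073 and 1069 CPM (-1.02 ± 0.07, adjusted p = 5.1e-10). IFI44L was at -0.89 ± 0.05 and HERC6, a HERC family ubiquitin ligase, at -0.46 ± 0.06. Summed over the 65 genes, the libraries held 33100 and 33410 CPM in SCR and 13960 and 13860 CPM in STING-guide cells after the pulse, or 41.83% of the SCR level. Under DMSO the sums were 3881 and 3921 CPM in SCR and 1939 and 2025 CPM in STING-guide cells. The interferon response of STING-guide cells after the pulse was thus below that of treated SCR cells and above that of untreated cells of either line.

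**Figure D2:**
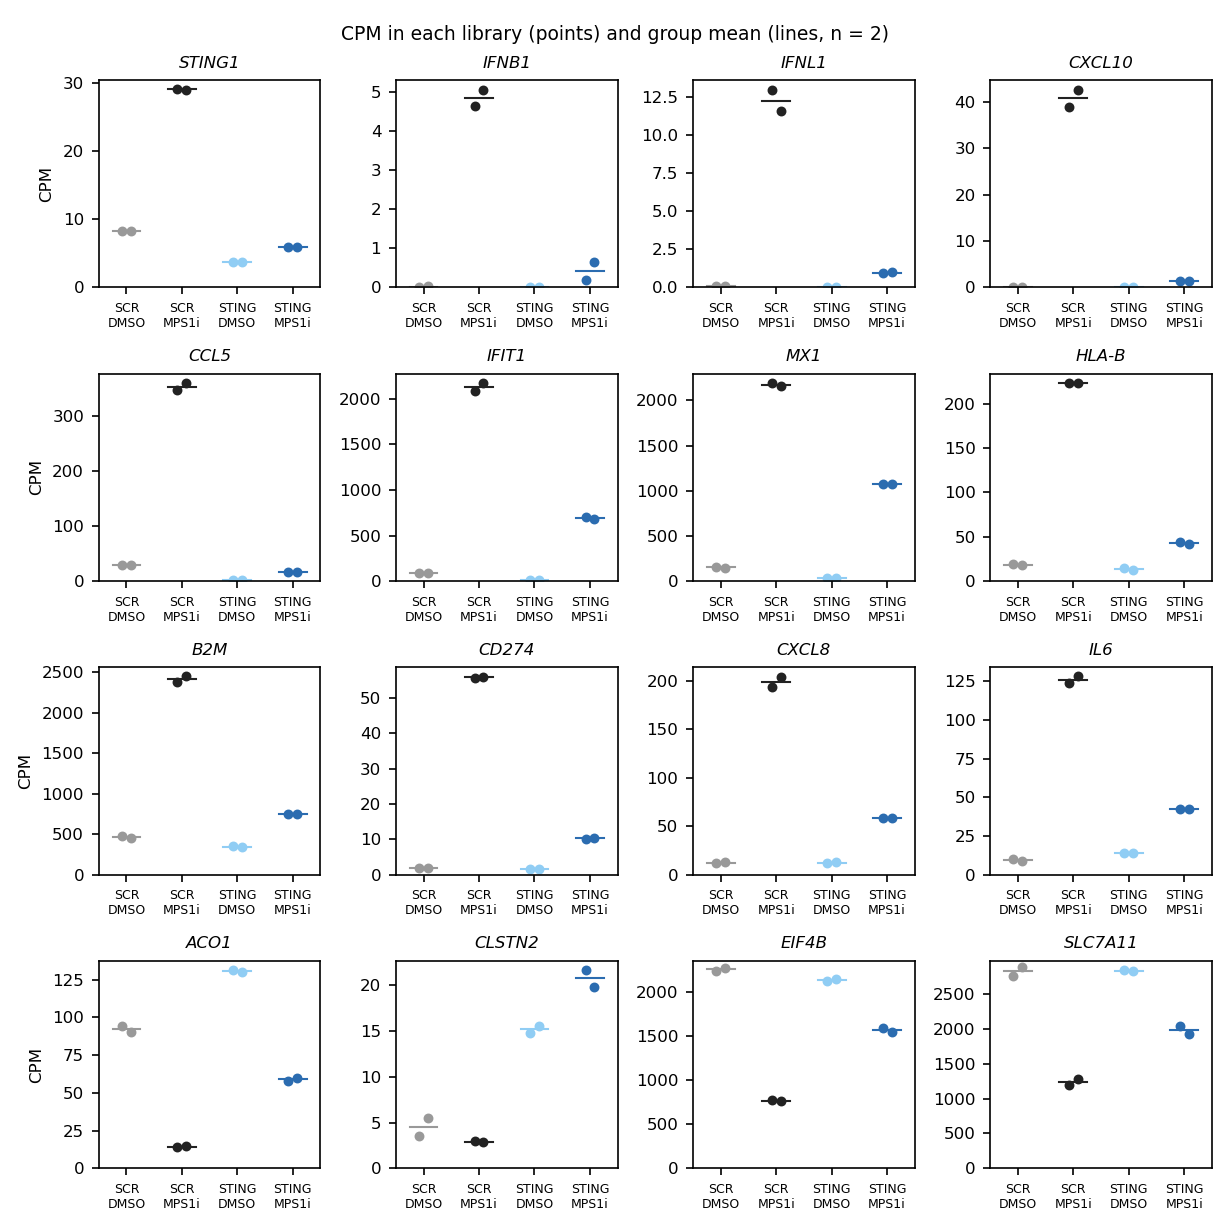
CPM of 16 genes in each library (points, linear axes from 0) with the mean of 2 libraries (lines) for SCR and STING-guide cells under DMSO and after MPS1i. CXCL10 is at or under 1.49 CPM in every group except SCR cells after MPS1i, MX1 reaches 1073 CPM in STING-guide cells after MPS1i, and ACO1 and EIF4B are higher in STING-guide than in SCR cells after MPS1i.

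Among 20 genes of interferon receptors, JAK-STAT signalling and its SOCS inhibitors, 14 were lower and 6 did not pass, the median being -0.34. IRF1, a transcription factor of the interferon gamma and NF-kB programmes, stood at 93 and 91.6 CPM in SCR and 39.9 and 42.9 CPM in STING-guide libraries (-1.16 ± 0.07, adjusted p = 3.7e-13). STAT2 stood at 495 and 489.9 against 267 and 272 CPM (-0.87 ± 0.05), and the kinase gene JAK2 was at -0.69 ± 0.06. The type I receptor chain IFNAR1 was at 0.10 ± 0.05 (adjusted p = 0.18) and the kinase TYK2 at -0.03 ± 0.13 (adjusted p = 0.91), neither passing the test. Of 18 RNA sensing genes, 11 were lower, 4 higher and 3 did not pass. TLR3, a receptor for double-stranded RNA, stood at 148 and 161 CPM in SCR and 37.1 and 40.3 CPM in STING-guide libraries (-1.99 ± 0.07, adjusted p = 5.7e-17). DDX58, the older symbol of the RIG-I gene, stood at 1223 and 1330 against 488 and 471 CPM (-1.41 ± 0.06), and IFIH1, which encodes MDA5, at 668 and 722 against 273 and 253 CPM (-1.40 ± 0.06). Besides MAVS, the higher genes were TRAF3 (0.33 ± 0.05), RNF135 (0.28 ± 0.08) and PCBP2 (0.21 ± 0.04).

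Antigen presentation genes were lower almost throughout. Of 21 tested members, 20 were lower and CANX, the chaperone calnexin, did not pass (-0.07 ± 0.05, adjusted p = 0.26). The median was -1.32. B2M, the light chain of every MHC class I molecule, stood at 2380 and 2457 CPM in the SCR libraries and 753 and 751 CPM in the STING-guide libraries (-1.69 ± 0.05, adjusted p = 8.8e-19). Among the heavy chains, HLA-B stood at 224 and 223 against 44.1 and 42.3 CPM (-2.37 ± 0.06, adjusted p = 2.6e-19) and HLA-E, a ligand of natural killer cell receptors, at 313 and 302 against 118 and 117 CPM (-1.39 ± 0.05). HLA-C was at -1.40 ± 0.06. Class I genes are alike in sequence and may share reads, so the split among them is less certain than their common direction. Of the peptide supply, the transporter subunit TAP2 was at -1.22 ± 0.05, the immunoproteasome subunit PSMB9 at -1.99 ± 0.09, and NLRC5, the transactivator of class I genes, at -1.45 ± 0.07. Smaller differences were those of the loading chaperones PDIA3 (-0.31 ± 0.04) and CALR (-0.49 ± 0.05). The summed list held 8643 and 8650 CPM in SCR and 4749 and 4682 CPM in STING-guide cells after the pulse, and 4073 and 4126 against 3489 and 3513 CPM under DMSO.

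Of 10 MHC class II genes tested, 3 were called, a share near the 33.1% called over all genes, and 7 did not pass. HLA-DRA was higher (0.97 ± 0.18, adjusted p = 0.00015) and RFX5, a regulator of class II promoters, was lower (-0.54 ± 0.06, adjusted p = 1.3e-07). HLA-DOB was also lower (-1.75 ± 0.65), but it had under 1 CPM and lost its call when any of the 4 libraries was left out. Under DMSO 6 of the 10 were higher in STING-guide cells, beside 4.70% over all genes tested, and the median was 1.08.

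Of 24 checkpoint ligands and death receptors, 18 were lower, 2 higher and 4 did not pass (median -0.72). CD274, the gene of PD-L1, stood at 55.7 and 55.9 CPM in SCR and 10.1 and 10.5 CPM in STING-guide libraries (-2.44 ± 0.09, adjusted p = 1.7e-16). PDCD1LG2, which encodes PD-L2, was at -2.65 ± 0.21. LGALS9, a TIM-3 ligand, stood at 51.2 and 50.1 against 8.31 and 9.87 CPM (-2.47 ± 0.11), and the death ligand TNFSF10, also called TRAIL, at 210.5 and 226 against 43.8 and 39.7 CPM (-2.39 ± 0.07, adjusted p = 1e-18). CD47, the signal that restrains phagocytes, was at -1.18 ± 0.06. IDO1, an enzyme of tryptophan breakdown, stood at 4.28 and 3.98 against 0.229 and 0.208 CPM (-4.22 ± 0.40), the latter from 6 counts in each library. The 2 higher genes were the TNF receptor TNFRSF1A (0.38 ± 0.06) and the stress ligand MICA (0.29 ± 0.09), and 1 of them was called without STING-guide replicate 2 or without SCR replicate 2.

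Inflammatory genes under NF-kB were also lower after the pulse. Of 33 tested, 25 were lower and 8 did not pass, the median being -0.67. CXCL8, which attracts neutrophils, stood at 194 and 204 CPM in SCR and 58 and 58.4 CPM in STING-guide libraries (-1.77 ± 0.06, adjusted p = 1.6e-17). IL6 stood at 124 and 128 against 42.5 and 42.7 CPM (-1.56 ± 0.06, adjusted p = 6.5e-17). TNFAIP3, the feedback inhibitor A20, stood at 205 and 209 against 76.4 and 75.4 CPM (-1.45 ± 0.05), and BIRC3, an inhibitor of apoptosis, at 482 and 490.1 against 218 and 209.7 CPM (-1.18 ± 0.05). In each of the 4 genes the groups were far apart. The subunits themselves differed less: NFKB1 was at -0.29 ± 0.06, RELA at -0.32 ± 0.05 and NFKB2 at -0.49 ± 0.06. PTGS2 (-0.08 ± 0.05, adjusted p = 0.21) and ICAM1 (-0.12 ± 0.09, adjusted p = 0.29) did not pass.

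Of 25 AP-1 and immediate early genes, 15 were lower, 2 higher and 8 did not pass (median -0.30). ATF3, a stress-induced transcription factor, stood at 38.1 and 36.7 CPM in SCR and 15.1 and 15.4 CPM in STING-guide libraries (-1.29 ± 0.08, adjusted p = 2.2e-12). EGR1 was at -1.32 ± 0.11, KLF4 at -0.96 ± 0.05 and JUN at -0.92 ± 0.08. MYC, at -0.03 ± 0.05 (adjusted p = 0.7), did not pass. The higher genes ETV4 (0.32 ± 0.08) and ETV5 (0.17 ± 0.05) are ETS factors, and 1 of them was called when any of the 4 libraries was left out.

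**Figure D3:**
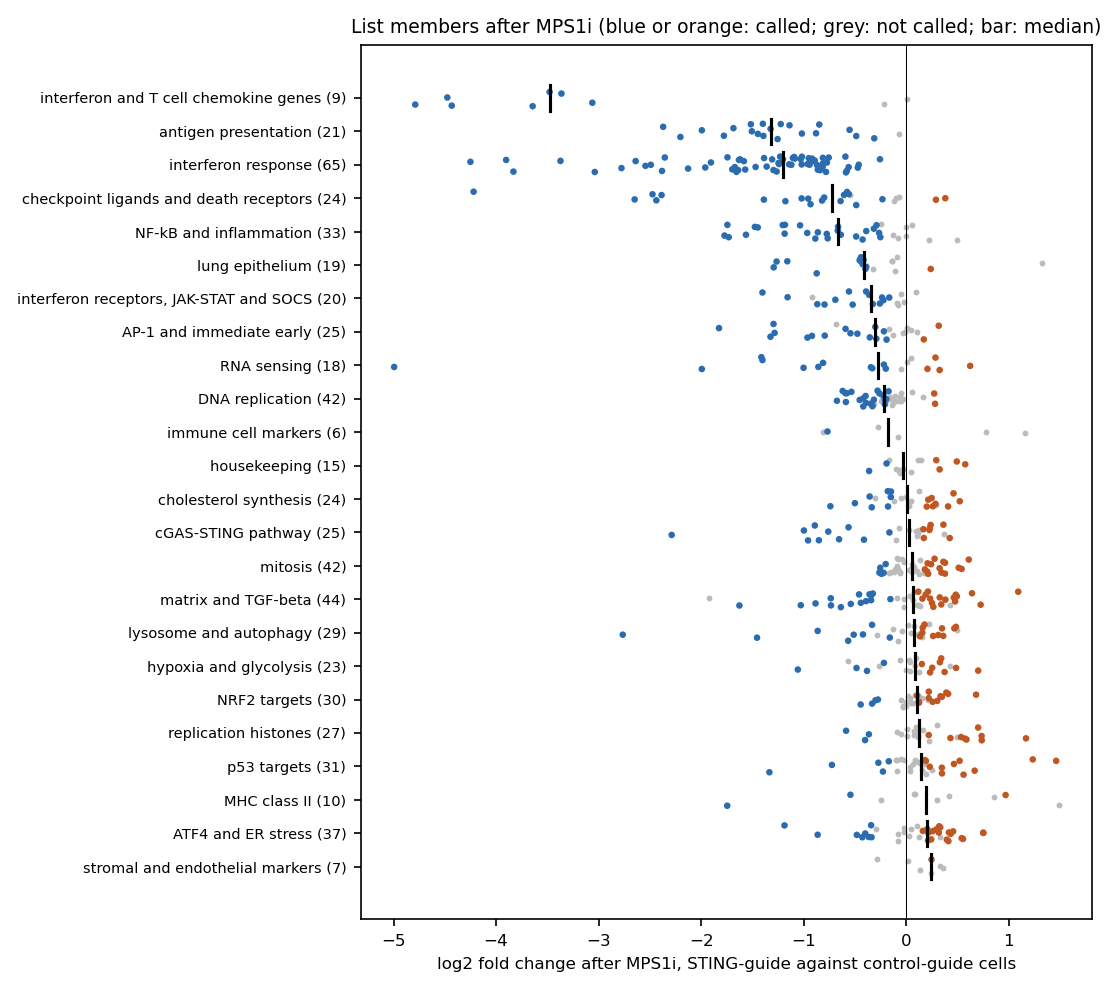
Log2 fold change after MPS1i of STING-guide against SCR cells for each tested member of 24 gene lists (points, numbers of members in brackets), with list medians as bars. The interferon, antigen presentation, checkpoint and NF-kB lists lie wholly or mostly to the left of 0, and the other lists hold members on both sides.

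Among called differences of at least 2-fold, genes higher in STING-guide cells were fewer than lower ones (139 against 584) and less extreme. CLSTN2, a calsyntenin of neuronal junctions, stood at 2.98 and 2.82 CPM in SCR and 21.7 and 19.8 CPM in STING-guide libraries (7.16-fold higher, log2 2.84 ± 0.14, adjusted p = 5e-13). It was already higher under DMSO (14.7 and 15.6 against 3.53 and 5.52 CPM). ACO1, the cytosolic aconitase that also serves as an iron regulatory protein, stood at 14 and 14.8 CPM in SCR and 57.6 and 60.1 CPM in STING-guide libraries after the pulse (4.08-fold higher, 2.03 ± 0.06, adjusted p = 2.9e-18). Under DMSO it stood at 94.2 and 90.4 CPM in SCR and 132 and 130.0 CPM in STING-guide libraries, so its level after the pulse was below the untreated level in both lines, and further below it in SCR cells.

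A level below the untreated one after the pulse, and lowest in SCR cells, was also seen in several others. PDK3, a pyruvate dehydrogenase kinase, stood after the pulse at 48.7 and 50.4 CPM in SCR and 150.4 and 145 CPM in STING-guide libraries (1.57 ± 0.05, adjusted p = 3.5e-18), against 166 and 176 CPM in SCR and 202 and 201 CPM in STING-guide libraries under DMSO. CMTM4, a MARVEL domain protein known to stabilise PD-L1, stood at 46.7 and 45.3 against 125 and 129 CPM (1.47 ± 0.05, adjusted p = 1.1e-17), and at 154 and 156 CPM in SCR and 170.1 and 165 CPM in STING-guide libraries under DMSO. ZMAT3, an RNA-binding target of p53, stood at 25.9 and 27 against 71.5 and 74.4 CPM (1.46 ± 0.06), and at 64.2 and 67.7 CPM in SCR and 83.9 and 85.9 CPM in STING-guide libraries under DMSO. In these 3 genes SCR cells after the pulse were the lowest of the 4 groups. MRC2, an endocytic collagen receptor (1.54 ± 0.17), PDK3 and ZMAT3 were higher in STING-guide cells under DMSO too (log2 0.98 ± 0.17, 0.24 ± 0.05 and 0.37 ± 0.05). Others among the 12 largest positive differences of called genes with a mean of 1 CPM or more and no overlap of the groups were DRAXIN, MIR600HG, TRAPPC6A, RP11-498C9.15 and NT5DC2, with log2 fold changes between 1.46 and 1.84. MIR600HG and RP11-498C9.15 are noncoding genes whose reads may include those of overlapping genes.

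Leaving aside genes whose mean was under 1 CPM, the 12 largest called losses without overlap of the groups were ZBTB32, CXCL10, CXCL11, CCL5, AIM2, GBP4, IDO1, LGALS17A, RSAD2, LAMP3, APOL3 and SERPING1. ZBTB32, a zinc finger repressor, stood at 2.76 and 3.17 CPM in SCR libraries, from 98 and 139 counts, and rested on 2 and 3 counts in STING-guide libraries. AIM2, a cytosolic DNA sensor of the inflammasome, rested on 88 and 121 against 4 and 3 counts. The sizes of these 2 differences are loosely set by so few counts. SERPING1, the inhibitor of complement C1, stood at 7.62 and 7.72 against 0.458 and 0.693 CPM (-3.72 ± 0.30, adjusted p = 3e-10), and the apolipoprotein L gene APOL3 at 12.9 and 12.5 against 1.11 and 0.796 CPM (-3.74 ± 0.20, adjusted p = 1.4e-13).

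The 6 called genes with the largest gains in CPM were EEF1A1, EIF4B, SLC7A11, PABPC1, SCD and GAPDH. EIF4B, a cofactor of the translation initiation helicase, stood at 777 and 764 CPM in SCR and 1590 and 1551 CPM in STING-guide libraries (1.03 ± 0.04, adjusted p = 1.3e-15), and at 2239 and 2283 CPM in SCR and 2135 and 2150 CPM in STING-guide libraries under DMSO. PABPC1, the poly(A)-binding protein, was at 0.46 ± 0.04 and the elongation factor EEF1A1 at 0.33 ± 0.04. SCD, which desaturates fatty acids, was at 0.62 ± 0.04. SLC7A11, the cystine importer, stood at 1200 and 1277 against 2039 and 1930 CPM (0.68 ± 0.05, adjusted p = 7.7e-12). The 6 with the largest losses in CPM were IFIT2, RNF213, MTND2P28, MTCO1P12, B2M and IFIT1. RNF213, a giant interferon-inducible ubiquitin ligase, stood at 4165 and 4067 against 1884 and 1906 CPM (-1.12 ± 0.04, adjusted p = 4e-17). MTND2P28 (-0.53 ± 0.08) and MTCO1P12 (-0.23 ± 0.05) are nuclear copies of mitochondrial genes and may hold reads of the mitochondrial transcripts.

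Of 37 genes of the ATF4 and endoplasmic reticulum stress programme, 19 were higher, 8 lower and 10 did not pass (median 0.20). The higher genes included several of amino acid supply. PSAT1, an enzyme of serine synthesis, stood at 96.7 and 100.2 CPM in SCR and 162 and 169 CPM in STING-guide libraries (0.75 ± 0.05, adjusted p = 6.9e-12). PHGDH was at 0.55 ± 0.07, the transporter SLC7A1 at 0.43 ± 0.04 and ATF4 itself at 0.41 ± 0.05. The lower genes included PPP1R15A, which restores translation after stress (-1.19 ± 0.06), and the chaperones HSP90B1 (-0.40 ± 0.05) and HSPA5 (-0.34 ± 0.05). Under DMSO, 21 of the 37 were lower in STING-guide cells, beside 5.47% over all genes tested. There 16 did not pass, the median being -0.22. PSAT1 then stood at 724 and 715 CPM in SCR and 508 and 507 CPM in STING-guide libraries. Of 30 NRF2 targets, 12 were higher (40%), 4 lower (13.3%) and 14 did not pass (median 0.11). Over all genes tested the shares were 15.8% and 17.3%, and over genes above 100 CPM they were 26.6% and 30.5%. Besides SLC7A11, transketolase (TKT, 0.39 ± 0.05), the epoxide hydrolase EPHX1 (0.41 ± 0.05) and the aldo-keto reductase AKR1B10 (0.33 ± 0.04) were higher.

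Cell cycle genes differed by small amounts. Of 42 mitotic genes, 14 were higher, 5 lower and 23 did not pass (median 0.06). PLK1, the polo-like kinase, stood at 35.4 and 30.2 CPM in SCR and 46 and 53.7 CPM in STING-guide libraries (0.61 ± 0.08, adjusted p = 7.6e-06), against 117 and 105 CPM in SCR and 95.7 and 99.4 CPM in STING-guide libraries under DMSO. The kinesin KIF20A was at 0.54 ± 0.07, the kinase NEK2 at 0.51 ± 0.07 and the kinetochore protein CENPF at 0.38 ± 0.06. Without STING-guide replicate 1, 8 mitotic genes were higher and 3 lower, and without replicate 2, 9 were higher and 3 lower. Without SCR replicate 2, 3 were lower. The summed mitotic levels of the lines overlapped, at 2929 and 3016 CPM in SCR and 3023 and 2970 CPM in STING-guide libraries. Of 42 DNA replication genes, by contrast, 22 were lower, 2 higher and 18 did not pass (median -0.22). CLSPN, a replication checkpoint adaptor, stood at 90.8 and 91.1 against 59.4 and 54.5 CPM (-0.68 ± 0.06), the origin licensing factor CDC6 was at -0.59 ± 0.06, GINS1 at -0.58 ± 0.08 and the ribonucleotide reductase subunit RRM2 at -0.39 ± 0.06. Of the higher genes RPA1 (0.28 ± 0.05) and GINS4 (0.27 ± 0.09), 1 was called when any of the 4 libraries was left out.

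Among 27 replication histone genes, 9 were higher (33.3%), 3 lower (11.1%) and 15 did not pass (median 0.13). The linker histones H1-5 (0.73 ± 0.06), H1-2 (0.70 ± 0.06) and H1-3 (0.57 ± 0.08) were higher and H2BC11 was lower (-0.59 ± 0.07). These transcripts mostly lack poly(A) tails and were captured from poly(A) enriched RNA, and their genes are near-identical copies. Of 31 p53 targets, 11 were higher (35.5%), 5 lower (16.1%) and 15 did not pass (median 0.15). For both lists the shares over all genes tested were 15.8% higher and 17.3% lower. They were 22.3% and 22.8% over genes at 10 to 100 CPM, and 26.6% and 30.5% above 100 CPM. Beside ZMAT3, the mitochondrial quality control gene SPATA18 stood at 8.47 and 8.34 CPM in SCR and 19.9 and 19.6 CPM in STING-guide libraries (1.23 ± 0.08, adjusted p = 1.2e-11), and RRM2B was at 0.35 ± 0.05. PMAIP1, the death gene NOXA, went the other way, at 290.3 and 304 against 122 and 114 CPM (-1.33 ± 0.05, adjusted p = 3.1e-16). CDKN1A, which arrests the cycle, did not pass (0.25 ± 0.11, adjusted p = 0.098). Lower p53 targets numbered 2 without STING-guide replicate 1 and 3 without SCR replicate 2.

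Of 19 tested lung epithelial genes, 12 were lower, KRT7 was higher (0.24 ± 0.06) and 6 did not pass (median -0.42). MUC13, a membrane mucin, stood at 799 and 827 CPM in SCR and 332 and 344 CPM in STING-guide libraries (-1.26 ± 0.04, adjusted p = 8.4e-18), and MUC16, the CA125 mucin, at 235 and 251 against 106 and 111 CPM (-1.16 ± 0.05, adjusted p = 1.5e-15). Under DMSO, MUC16 was higher in STING-guide cells (185 and 187 against 126 and 132 CPM). KRT8 and KRT18, keratins of simple epithelium, were abundant in all 4 libraries and did not pass. The lung lineage markers NKX2-1 and SFTPC had at most 2 counts in any of the 4 libraries and SFTPB and SCGB1A1 had 0, so defining markers of alveolar and club cells were at or near 0 in these cells. KRT7 lost its call without SCR replicate 2.

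Lists of metabolism and cell structure held members on both sides, as did all genes tested (15.8% higher and 17.3% lower). Lysosomal genes were 10 higher, 8 lower and 11 not passing of 29, and the largest difference was in CTSS, a protease of antigen processing, at 57.7 and 59.9 CPM in SCR and 8.46 and 8.83 CPM in STING-guide libraries (-2.76 ± 0.09, adjusted p = 8.4e-18). CD68, a lysosomal membrane protein best known from macrophages, was at -1.46 ± 0.07. Without SCR replicate 1, 6 lysosomal genes were higher. Matrix and TGF-beta genes were 17 higher, 15 lower and 12 not passing of 44, with the gelatinase MMP2 (1.09 ± 0.07) and the hemidesmosome collagen COL17A1 (-1.63 ± 0.10) at the ends among the named ones. Hypoxia and glycolysis genes were 8 higher, 4 lower and 11 not passing of 23, with PFKFB3 (0.70 ± 0.05) and HK2 (-1.06 ± 0.17) on opposite sides. Cholesterol synthesis genes split into 8 higher, 8 lower and 8 not passing of 24, with DHCR7 (0.46 ± 0.06), HMGCS1 (-0.50 ± 0.04) and STARD4 (-0.74 ± 0.05) as examples. Of the cholesterol genes, 5 were lower without STING-guide replicate 1, 5 were higher and 5 lower without its replicate 2, and 5 were higher and 4 lower without SCR replicate 2.

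Markers of immune cells were few and low. Of 17 immune cell markers, 11 had too few counts to be tested, among them CD3D, MS4A1 and NKG7, which had 0 counts in the 4 libraries, and PTPRC, which had at most 5. Their summed level was 7.96 and 8.81 CPM in SCR and 7.47 and 8.07 CPM in STING-guide cells after the pulse. ITGAM was lower at under 2 CPM (-0.77 ± 0.30, adjusted p = 0.0496) and lost its call without either STING-guide replicate or without SCR replicate 2. Of 14 stromal and endothelial markers, 7 were tested. The 14 summed to 48.55 and 53.86 CPM in SCR and 55.29 and 55.82 CPM in STING-guide cells after the pulse. DCN was higher (0.24 ± 0.09, adjusted p = 0.035), a call lost without STING-guide replicate 2 or SCR replicate 1. RGS5 is listed under 2 identifiers. Of 15 housekeeping genes, 4 were higher (26.7%), 2 lower (13.3%) and 9 did not pass. The shares were 15.8% and 17.3% over all genes tested, and 26.6% and 30.5% over genes above 100 CPM. ACTB was at -0.06 ± 0.06 (adjusted p = 0.49), while the elongation factor EEF2 (0.57 ± 0.05) was higher and the tubulin TUBA1B (-0.36 ± 0.04) lower. Only 1 of the 2 lower calls remained without STING-guide replicate 1 or without SCR replicate 1.

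To see which differences were already there without the drug, the same lines were compared under DMSO. There 1826 genes were called (10.2%), 844 higher (4.70%) and 982 lower (5.47%) in STING-guide cells, and the calls fell to 897 without STING-guide replicate 1 under DMSO, 921 without its replicate 2 and 1015 without SCR replicate 2. Lower genes made up 53.8% of these calls, and 37% when counts were scaled by library totals only. Of the interferon response list, 50 of 65 were lower under DMSO, with a median of -0.95. MX1 stood there at 156 and 149 CPM in SCR and 28.8 and 34.7 CPM in STING-guide libraries (-2.27 ± 0.08, adjusted p = 4.6e-13) and IFIT1 at 87.7 and 91 against 12.2 and 16.2 CPM (-2.66 ± 0.11, adjusted p = 4.4e-09). The untreated SCR cells thus held a low level of these genes, and the STING-guide cells held less. Of the NF-kB genes, 7 of 33 were higher and 1 lower under DMSO, with a median of 0.07, and IL6 was higher, at 13.8 and 14.3 against 10.2 and 9.02 CPM (0.54 ± 0.08, adjusted p = 3.7e-05).

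Whether the difference between the guides was itself altered by the pulse was tested with an interaction term, which called 3504 genes (19.5%), 1790 positive (9.97%) and 1714 negative (9.55%). For antigen presentation genes the deficit was larger after the pulse: 20 of 21 interaction values were called negative and that of CANX positive, and B2M had a value of -1.26 ± 0.07 (adjusted p = 1.5e-12). NF-kB genes had 26 of 33 called negative, with IL6 at -2.10 ± 0.10 and CXCL8 at -1.78 ± 0.11. Mitotic genes had 19 of 42 called positive and ATF4 and stress genes 22 of 37, with 3 negative, PSAT1 at 1.25 ± 0.07 among the positive ones. The interferon response list split, with 29 of 65 negative and 18 positive. GBP4 was among the negative (-2.37 ± 0.55, adjusted p = 0.0028), and IFIT1 (1.05 ± 0.14, adjusted p = 0.00017), MX1 (1.25 ± 0.10, adjusted p = 6.7e-08) and IFI44L (1.51 ± 0.08) among the positive. For these 3 genes a positive value means that the ratio between the guides was nearer to 1 after the pulse, while the gap in CPM was wider, as the MX1 and IFIT1 levels above show.

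**Figure D4:**
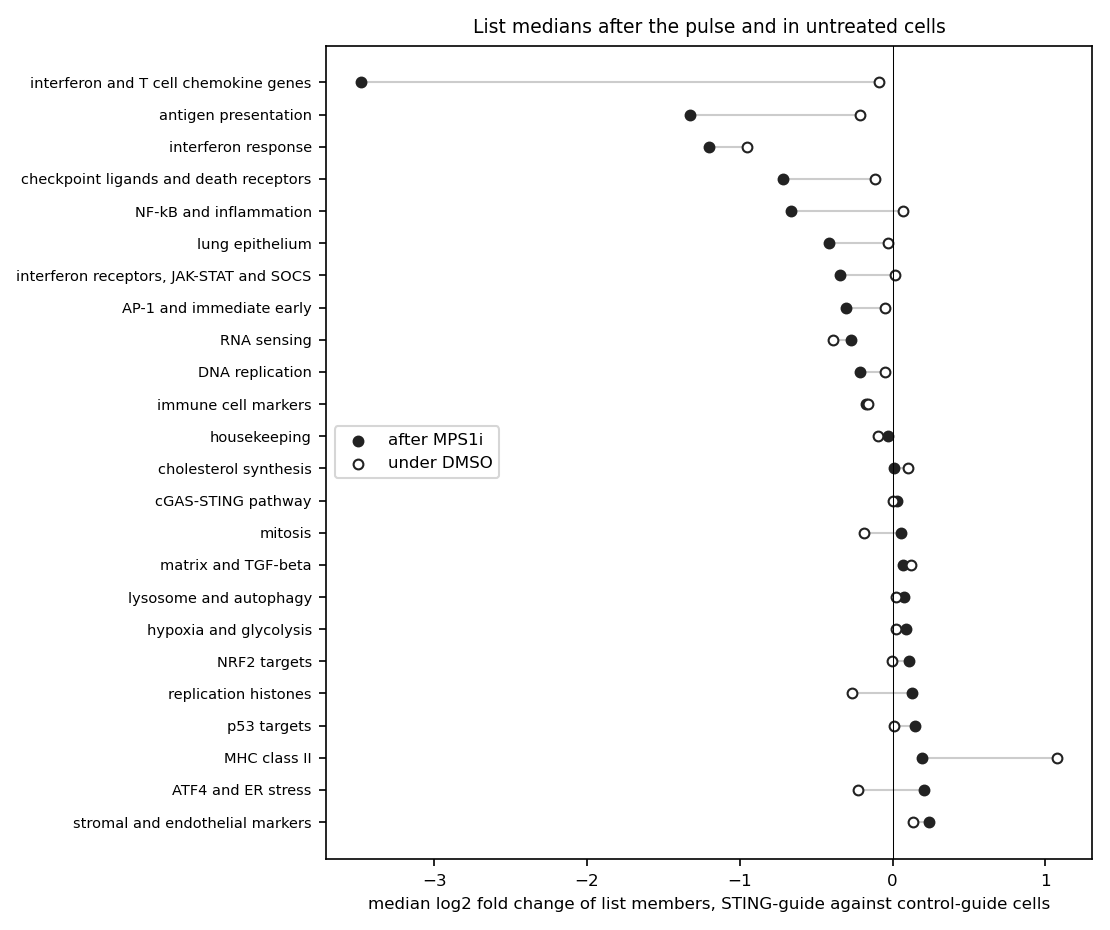
Median log2 fold change of the tested members of each list, STING-guide against SCR cells, after MPS1i (filled) and under DMSO (open), without error bars. The medians lie far apart for interferon and chemokine genes (-3.48 and -0.09) and closer for the interferon response (-1.20 and -0.95). The -0.09 is over 9 genes that ranged from -4.80 to 1.23, most with very few counts under DMSO.

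The guide against MAVS gives the nearest comparison after the pulse, and it shares the STING-guide libraries with the comparison above. Between STING-guide and MAVS-guide cells after MPS1i, 1926 genes were called (10.7%), 879 higher (4.90%) and 1047 lower (5.83%) in STING-guide cells, and leaving out any of the 4 libraries gave between 978 and 1176. Of the interferon response list 58 of 65 were lower in STING-guide cells, with a median of -0.51, and 19 of 21 antigen presentation and 18 of 33 NF-kB genes were lower. CCL5 stood at 234 and 238 CPM in MAVS-guide and 16.3 and 16.4 CPM in STING-guide libraries (-3.85 ± 0.07, adjusted p = 1.4e-23), a gap wider than those of CXCL10 and CXCL11. CXCL10 stood at 5.63 and 5.12 CPM in MAVS-guide and 1.45 and 1.49 CPM in STING-guide libraries (-1.87 ± 0.21, adjusted p = 9.1e-07), both far below the SCR level. IFNB1 (1.13 ± 0.56, adjusted p = 0.23) and IFNL1 (-0.59 ± 0.26, adjusted p = 0.16) did not pass, with 0.179 and 0.21 and 1.25 and 1.68 CPM in the MAVS-guide libraries. B2M stood at 1629 and 1662 CPM in MAVS-guide libraries, between the SCR and STING-guide levels (-1.13 ± 0.05, adjusted p = 2.5e-14). IRF1 did not pass between these lines (-0.09 ± 0.07, adjusted p = 0.46).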

How the data were processed

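The deposited table holds raw read counts per gene, made by the authors. The tools listed, per the submitters' processing notes, are Trim Galore, Trimmomatic, cutadapt, STAR and featureCounts, with the build GRCh38 (hg38). Versions and the strand setting are not given in the sources used here. Per the labels' protocols, the RNA was poly(A) enriched and the library kit is stranded.

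Genes passing edgeR's expression filter (minimum count 10, minimum total 15) were fitted with edgeR 4.0.16 (limma 3.58.1, R 4.3.3) by the quasi-likelihood test with TMM scaling, 1 mean for each of the 8 groups of 2 libraries (8 residual degrees of freedom), and p-values were adjusted over the 17950 genes by the Benjamini-Hochberg method. Of the 17950, 14113 are protein coding. DESeq2 1.42.0 was an alternative. The fit was first tested on simulated data. Standard errors are the log2 fold change over the square root of F.

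Named genes were 13 set genes, the 12 largest called differences each way above a mean of 1 CPM without overlap of groups, the 6 largest CPM differences each way, up to 4 members of each of 24 lists by smallest adjusted p, the 6 largest called interactions each way above a mean of 1 CPM over 8 libraries, and members of counts of 5 or fewer. The members and lists were chosen with earlier results of these data known. Replicate numbers did not pair the libraries across groups. Promoters came from RefSeq (GRCh38.p14). A promoter entry matched 66.4% of genes tested, too few for comparing motif shares between gene sets. Values of a few single genes are not reported here.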

Additional observations from a re-analysis of the deposited data

Results flagged for a closer look

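The difference between the guides was not the same after MPS1i as under DMSO for 3504 genes, by an interaction test in the edgeR fit, with p adjusted over all genes. Each value here is the log2 difference after MPS1i minus the log2 difference under DMSO. Among the named genes, the log2 difference was more negative after the pulse than under DMSO for B2M (-1.26), CD274 (-2.15), CGAS (-0.66), STING1 (-1.14) and TBK1 (-0.40). For CGAS and TBK1 nearly all of the difference after the pulse was absent under DMSO.

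Among genes called in the interaction with a mean of 1 CPM or more over the 8 SCR and STING-guide libraries, the 6 most negative values were those of LGALS17A (-5.58), CXCL10 (-5.19), NEXN (-4.85), IFNL3 (-4.59), GRIP2 (-4.41) and CXCL11 (-3.94). Except for NEXN, these genes had between 0 and 7 counts in each DMSO library of these lines, so the size of their values is loosely set. NEXN, an actin-binding protein, stood at 90.8 and 97.3 CPM in SCR and 8.16 and 7 CPM in STING-guide libraries after the pulse, and at 0.547 and 0.636 CPM in SCR and 1.11 and 1.65 CPM in STING-guide libraries under DMSO. Leaving out 1 library ended the call for 5 of the 6. CXCL10 was at -3.84 without STING_DMSO replicate 2, CXCL11 at -3.12 without STING_DMSO replicate 1, and LGALS17A at -5.70 and -5.48 without STING_DMSO replicate 1 or 2. IFNL3 was at -0.027 without STING_DMSO replicate 1, and its call was also lost, at -4.66 to -3.86, without SCR_DMSO replicate 2 or any of the 4 MPS1i libraries. The call of GRIP2 was lost, at -4.69 to -3.67, without SCR_DMSO replicate 2 or any of the 4 MPS1i libraries, and its value was 0.18 without STING_DMSO replicate 2.

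Positive values were those of IFIT1 (1.05), MX1 (1.25) and MAVS (0.47) and, as the 6 largest under the same limits, NAPA-AS1 (1.87), PRR7 (1.75), SBNO1-AS1 (1.70), RNASEK-C17orf49 (1.70), MIR600HG (1.69) and RP11-498C9.15 (1.66). Most of these 6 are antisense, readthrough or other noncoding genes whose reads may belong in part to overlapping genes. The call of RNASEK-C17orf49 was lost, at 1.11 to 1.87, without any of the 4 MPS1i libraries, either STING_DMSO replicate or SCR_DMSO replicate 1. That of SBNO1-AS1 was lost, at 1.33 to 1.64, without replicate 2 of STING_MPS1i, SCR_MPS1i or STING_DMSO.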

How the results depend on the processing

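The 5949 calls after MPS1i stayed between 4339 and 6571 under every alternative. At least 2-fold calls numbered 723, and 407 with a filter at a mean of 1 CPM, which tests fewer genes. Leaving out 1 library gave 4339 to 4869 calls after MPS1i, 628 to 666 of at least 2-fold, 897 to 1375 (of 1826) under DMSO, 2633 to 3022 (of 3504) for the interaction and 978 to 1176 (of 1926) against the MAVS guide. With a single library left in a group, its spread is taken from the other groups. Replicate numbers were shared between groups, but same-numbered libraries did not deviate together (correlations from -0.08 to 0.14 over 28 pairs of groups). A replicate block gave 6004, 1893, 3519 and 1938 calls in the 4 comparisons. Lower calls made up 52.2% after MPS1i, 44.3% with upper-quartile scaling and 40% with library totals, and 53.8%, 38.8% and 37% under DMSO. The median log2 fold change of all genes after MPS1i was -0.002, and 0.0543 with library totals. Of 131 named genes, 125 kept direction and side of the threshold after MPS1i in every alternative that gave them a result, 13 at most. ITGAM, HLA-DOB, DCN, PRR7, TTK and IRF3 did not. AIM2, IDO1, IFNB1, LGALS17A and ZBTB32, among the 125, had a result in 12. Interaction values kept direction and lost their call in 33 cases. Among named genes the sign reversed for IRF3, TTK and GRIP2 alone. Without 1 library, IRF3 after MPS1i ranged from -0.2341 (without STING_MPS1i replicate 2) to 0.0747 (without STING_MPS1i replicate 1), and the interaction ranged from -0.0606 to 0.2483 for IRF3, from -0.0219 to 0.1485 for TTK and from -7.6552 to 0.1808 for GRIP2, with -4.4054 from all libraries and 0.1808 without STING_DMSO replicate 2. The IRF3 interaction was -0.0654 when libraries were thinned to equal depth. The cause was not tested. Depth limits genes with few counts, such as ZBTB32, AIM2 and IFNB1.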

Other observations

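Complement genes, a list put together after values were seen, were 11 lower, 3 higher and 5 not passing of 19 after MPS1i, with a median log2 fold change of -0.60 (under DMSO the median was 0.0). C3AR1, among the 11, had 23 and 20 counts in SCR and 2 and 6 in STING-guide libraries after the pulse. It had 0 counts in the DMSO libraries of these lines, so it could hardly have been called higher. CFB, the factor B of the alternative pathway, stood at 145 and 149 CPM in SCR and 33.1 and 35.9 CPM in STING-guide libraries (-2.09 ± 0.07), and C1R, a protease of the classical pathway, at 211 and 199 against 103 and 108 CPM (-0.96 ± 0.06). C3 did not pass (-0.10 ± 0.05, adjusted p = 0.14), and the surface inhibitor CD59 was higher (0.48 ± 0.05).

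Genes of the translation machinery were also grouped, by gene symbol, after values were seen. Of 79 ribosomal protein genes, 26 were higher, 8 lower and 45 did not pass, the median being 0.076 after MPS1i and -0.187 under DMSO. Of 53 genes with EIF symbols, 18 were higher, 6 lower and 29 did not pass. Of 14 with EEF symbols, 5 were higher, 1 lower and 8 did not pass. These 2 sets also hold genes that are not translation factors, such as EIF2AK2 (-0.20, lower), EIF4EBP1 (0.93, higher) and EEF2K (0.37, higher). Over all genes tested, 15.8% were higher and 17.3% lower, and over genes above 100 CPM 26.6% were higher and 30.5% lower.

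The share of genes called after MPS1i grew with level, from 6.95% of 4012 genes under 1 CPM to 57.1% of 2316 genes above 100 CPM. It was 38.2% of 14113 protein coding genes and 14.5% of 2574 lncRNA genes. Among 27 snRNA genes, 11 were lower after MPS1i (40.7%, beside 17.3% over all genes tested). Their median was -0.571, against a median of 1.327 under DMSO. The transcripts of these genes mostly lack poly(A) tails and have many near-identical copies.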
